A study of Mus musculus with 3 samples.

Results

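Forkhead transcription factors are encoded in mouse by the Fox genes, which are grouped by letter into subfamilies. The family was taken here as the protein-coding genes whose symbol is Fox followed by a letter from a to s and a number, and 41 genes were described out of 55421 named genes, of which 21926 are protein-coding. Their RNA was measured in ALSCs, a mouse primed pluripotent stem cell cultured with Activin A and LIF. The cells came from the epiblast of embryos at embryonic day 6.5, from ICR females crossed with males carrying the GOF/GFP transgene, an Oct4 reporter. The study asked whether this pair of signals supports a primed stem cell, and the data used here are 3 poly(A) RNA-seq libraries of ALSCs. All 3 share the same medium and background, so no comparison between conditions was made, and the libraries were called replicates 1, 2, and 3. How many independent lines stand behind them is not given in the sources used here, so every p-value below measures only the spread between these libraries.

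All forkhead proteins bind DNA through a winged-helix domain, and the members differ in the partners and signals attached to it. The FOXO proteins are held in the cytoplasm when insulin and growth factors activate the PI3K-AKT pathway, FOXM1 drives genes needed for mitosis, and FOXK proteins bring the SIN3 and PR-DUB chromatin complexes to DNA. Many other members are best known as lineage regulators in endoderm, mesoderm, brain, placodes, or immune cells, and the epiblast is the tissue from which all of these arise.

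Replicates 1, 2, and 3 held 18088505, 18724038, and 18037342 counts over the named genes. Levels were given as FPKM, the count per kilobase of the gene length in the deposited table, scaled by the library's total on named genes. A count of 0 allows a level of up to 3 counts, so a level at or under 3 was taken as not detected, and such limits cover counting error only. All 7 markers of the pluripotent epiblast were at 1 FPKM or more, from Pou5f1 at 648 to Fgf5 at 3.89 FPKM. That level was reached by 0 of 7 endoderm markers, 1 of 7 mesoderm markers, and 2 of 7 neural markers. These were Tcf15 of mesoderm at 27.3 FPKM and the neural markers Tubb3 at 28.0 and Sox1 at 8.18 FPKM. Of the naive markers only Nr0b1 reached 1 FPKM. Of 8 fibroblast markers 3 did so, namely Thy1 at 6.88, Col1a1 at 5.05, and Fbln2 at 1.22 FPKM, while Dcn and Lum had 0 counts in every library. Replicate 1 stood apart from the other libraries. The variation between libraries beyond counting noise, given as edgeR's biological coefficient of variation, came to 0.153 over all of them and 0.0530 without replicate 1. Replicate 1 also held fewer counts on long genes. Its median log2 ratio to replicates 2 and 3 was 0.39 in the shortest and -0.51 in the longest of 20 equal groups of genes averaging 100 or more counts.

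To find which forkhead genes were transcribed, the level of each was compared with 1 FPKM and with the limit of detection. Of the 41 members, 16 reached 1 FPKM in each library, or 39.0%. The same level was reached by 45.7% of protein-coding genes and by 47.5% of the 1530 genes that the deposited table assigns to a transcription factor family. A further 5 members were above 3 counts in every library but under 1 FPKM, so 21 members, or 51.2%, were above the limit of detection, against 60.3% of protein-coding genes. The other 20 members had at most 3 counts in every library, and 9 of them had 0 counts in all libraries.

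**Figure D1:**
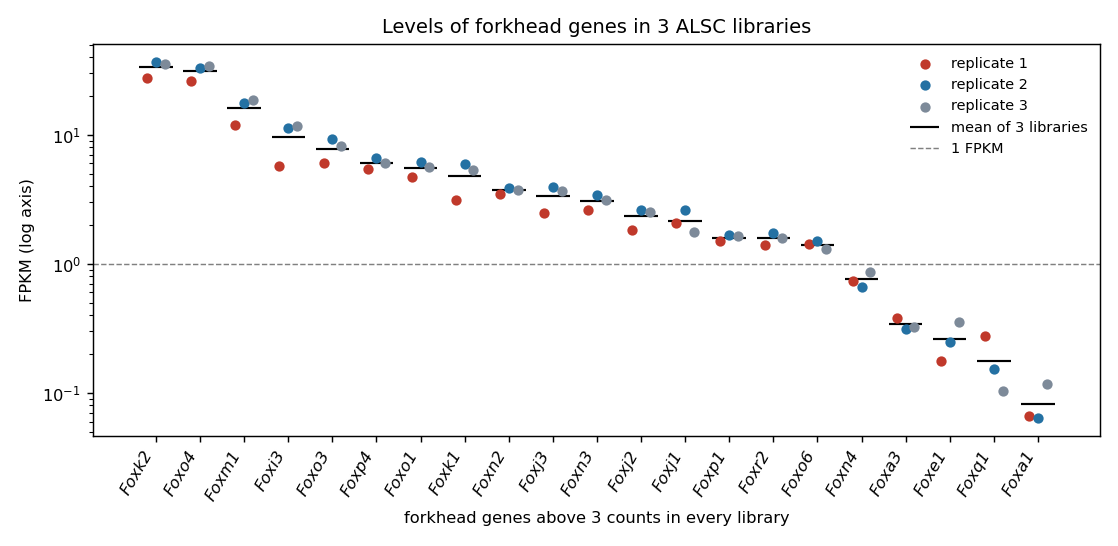
FPKM on a log axis of the 21 forkhead genes above 3 counts in every library, in order of their mean. Points are the libraries, black bars are means (n = 3), and the dashed line is 1 FPKM; Foxk2, Foxo4, and Foxm1 lead, and replicate 1 is the lowest point for most members above 1 FPKM.

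Summed over the family, the level was 109, 149, and 146 FPKM in replicates 1, 2, and 3, and replicate 1 lay below the other libraries. Members of the Foxo, Foxk, and Foxm subfamilies held most of this sum. The 3 highest members, Foxk2, Foxo4, and Foxm1, made up 59.6% ± 1.10 (SD, n = 3) of the family's FPKM. The plot of levels shows how closely spaced many neighbours were. In the order of means, the ranges of neighbouring members did not overlap at 6 steps, namely from Foxo4 to Foxm1, Foxm1 to Foxi3, Foxn3 to Foxj2, Foxj1 to Foxp1, Foxo6 to Foxn4, and Foxn4 to Foxa3. At all other steps the ranges of the 3 libraries overlapped. With the gene length of the deposited table, the order still held within each library from Foxk2 to Foxo4, Foxo3 to Foxp4, Foxp4 to Foxo1, and Foxo1 to Foxk1. The order also depends on the length used. With the longest coding transcript of GENCODE M21 in place of the length in the table, Foxj3 moved from 3.36 to 7.69 FPKM and Foxp1 from 1.598 to 3.06 FPKM. The other members above 3 counts moved by less than 1.5 times. At that length Foxk2 was at 34.7 ± 5.18 and Foxo4 at 34.3 ± 4.69 FPKM (SD, n = 3). The lead of Foxk2 was then well within their spread.

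The Foxk subfamily encodes repressors that work with SIN3 and with the deubiquitinase BAP1. With the gene length of the deposited table, Foxk2 had the highest mean of the family, close to that of Foxo4. Foxk2 was at 27.5, 36.7, and 35.3 FPKM in replicates 1, 2, and 3 (33.2 ± 4.95, SD, n = 3), above 84.5% of the protein-coding genes at 1 FPKM or more. Replicate 1 was the lowest library, and replicates 2 and 3 lay close together. Its paralog Foxk1 was at 3.11, 5.94, and 5.36 FPKM, so replicate 1 fell outside the range of the other libraries here too. Foxk2 made up 87.6% ± 2.001 (SD, n = 3) of the FPKM of the pair. Foxk2 exceeded Foxk1 by 8.86, 6.19, and 6.59 times in replicates 1, 2, and 3, and the levels of the pair did not overlap. Both genes varied between libraries beyond counting noise in a chi-square test against TMM library sizes with Benjamini-Hochberg adjustment (adjusted p = 3.69e-20 for Foxk2 and 5.28e-23 for Foxk1). On the scale of log2(CPM + 1), replicate 1 differed from the mean of replicates 2 and 3 by -0.32 for Foxk2 and -0.77 for Foxk1. After the trends with length and GC content were removed, these values were -0.23 and -0.54.

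The partners of FOXK proteins were transcribed too. Of 11 genes of the PR-DUB and SIN3 complexes, 9 were at 1 FPKM or more, with a median of 14.9 FPKM. Hcfc1, a scaffold of the BAP1 complex, was the highest at 22.9, 46.4, and 45.4 FPKM in replicates 1, 2, and 3, and replicate 1 was far below the others. Bap1, the catalytic subunit, was at 33.0 ± 4.38 FPKM and Sin3a, the SIN3 scaffold, at 32.0 ± 3.98 FPKM (SD, n = 3). Asxl1, which activates BAP1, was at 18.4, 32.1, and 29.9 FPKM and was again lowest in replicate 1. In the same chi-square test 10 of the 11 varied, beside 47.2% of all genes tested and 64.7% of genes averaging 100 or more counts. Of the 10, 9 were lowest in replicate 1 and 1 was highest, while 3748 of the 8003 genes that varied were lowest there. Over all genes tested, 22.1% both varied and were lowest in replicate 1. The median log2 ratio of replicate 1 over the list was -0.36, against 0.0014 over all genes tested, and -0.14 with the trends removed, against -0.04. No gene of this list was at or under 3 counts in every library.

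The 4 Foxo genes, effectors of insulin and PI3K signaling, were all above 1 FPKM and summed to 45.8 ± 6.43 FPKM (SD, n = 3), the largest sum of any subfamily. Foxo4, an X-linked gene, was at 26.2, 32.9, and 34.2 FPKM in replicates 1, 2, and 3 and made up 67.9% ± 1.63 (SD, n = 3) of that sum. Foxo3 was at 6.02, 9.19, and 8.25 FPKM, and Foxo4 exceeded it by 4.03 ± 0.403 times (SD, n = 3). Foxo1, the member best studied in liver and pancreas, followed at 4.72, 6.18, and 5.62 FPKM, and its range overlapped that of Foxo3. Within each library Foxo3 still exceeded Foxo1, by 1.28, 1.49, and 1.47 times in replicates 1, 2, and 3. Foxo6, known mainly from brain, was lowest at 1.42, 1.49, and 1.29 FPKM, below every library of the other Foxo genes. Foxo4, Foxo3, and Foxo1 were lowest in replicate 1 and varied in the chi-square test with Benjamini-Hochberg adjustment (adjusted p = 1.19e-10, 4.72e-15, and 2.16e-04), whereas Foxo6 did not pass (adjusted p = 0.768). The log2 ratio of replicate 1 was -0.28 for Foxo4, -0.45 for Foxo3, and -0.25 for Foxo1. With the trends removed it was -0.33 for Foxo4 and -0.23 for Foxo3, while the value for Foxo1 turned to 0.0094.

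The PI3K-AKT pathway that controls FOXO localization was transcribed almost throughout. Of 27 genes, 25 were at 1 FPKM or more, with a median of 7.61 FPKM. The highest were scaffold genes of the Ywha family, with Ywhae at 580 ± 35.6, Ywhaz at 117 ± 2.34, and Ywhaq at 108 ± 6.16 FPKM (SD, n = 3); these proteins bind phosphorylated FOXO. Skp2, a ubiquitin ligase subunit that acts on FOXO1, was listed at 0 in every library, and its gene overlaps Lmbrd2 on the opposite strand. Whether its reads were lost in the counting was not tested, so no level was read from this 0. In the chi-square test 18 of the 26 genes tested varied, 13 of them lowest and 4 highest in replicate 1, a share close to the 64.7% of genes averaging 100 or more counts. Mtor, the kinase of a complex that phosphorylates AKT, held 1256, 2357, and 2189 counts in replicates 1, 2, and 3, with replicate 1 lowest. Pik3r2, a regulatory subunit of PI3K, held 100, 107, and 153 counts, with replicate 3 highest. The median log2 ratio of replicate 1 over the list was -0.15, and -0.06 with the trends removed.

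Genes known as FOXO targets were mostly transcribed. Of 18, 13 were at 1 FPKM or more, led by the mitophagy gene Bnip3 at 131 ± 4.38, Txnip, an inhibitor of thioredoxin and glucose uptake, at 91.3 ± 2.97, and Cat, the catalase gene, at 50.5 ± 2.84 FPKM (SD, n = 3). The liver genes Pck1 and G6pc and the muscle atrophy gene Fbxo32 had 0 counts in every library. Irs2, an adaptor of the insulin receptor, was at 6.37, 11.2, and 11.0 FPKM in replicates 1, 2, and 3, and Sesn3, a stress-induced inhibitor of mTORC1, at 1.98, 3.01, and 2.35 FPKM. Replicate 1 was lowest for both genes. Of the 15 targets tested 9 varied, 5 lowest and 4 highest in replicate 1, a share between the 47.2% of all genes tested and the 64.7% of those averaging 100 or more counts. The median log2 ratio of the targets was -0.03. The forkhead motif GTAAACA, searched on both strands of RefSeq promoters from 250 bases before to 50 after the start (GRCm38.p6), was found for 4 of 16 targets, namely Bcl2l11, Sesn1, Trim63, and Txnip. It was in 21.1% of their 19 windows, against 3.65% of all 32817 windows.

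Foxm1, which drives the genes of mitotic entry in dividing cells, was the only member of its subfamily and ranked next after Foxo4. Its gene overlaps Tex52 and Gm44596 on the same strand, and whether this changed its counts was not tested. Foxm1 was at 12, 17.5, and 18.6 FPKM in replicates 1, 2, and 3 (16.0 ± 3.54, SD, n = 3). Replicate 1 was the lowest, at 30.3% below the mean of the others on TMM library sizes. The variation passed the chi-square test with Benjamini-Hochberg adjustment (adjusted p = 1.15e-27), and the log2 ratio of replicate 1 was -0.51, or -0.36 with the trends removed. All 6 genes of its partners, the MuvB core and B-MYB, were at 1 FPKM or more. Rbbp4, a histone-binding subunit, was at 64.7 ± 3.64, Mybl2, which encodes B-MYB, at 28.8 ± 3.08, and Lin37 at 7.11 ± 1.90 FPKM (SD, n = 3). Lin37, a MuvB subunit needed for repression in quiescent cells, held 233, 164, and 144 counts, with replicate 1 highest. Lin52, another MuvB subunit, held 174, 143, and 221 counts, with replicate 3 highest. In the chi-square test 5 of the 6 varied, 2 lowest and 2 highest in replicate 1, beside 64.7% of genes averaging 100 or more counts.

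The 13 target genes of FOXM1 were higher than the factor itself as a group, with a median of 59.7 FPKM and 12 at 1 FPKM or more in every library. Cdc20, an activator of the anaphase-promoting complex, was at 186 ± 2.87, and the mitotic cyclin genes Ccnb1 and Ccnb2 were at 121 ± 4.05 and 113 ± 10.9 FPKM (SD, n = 3). Foxm1 was lowest in replicate 1, whereas the summed level of the targets was 894, 892, and 881 FPKM in replicates 1, 2, and 3. In the chi-square test 8 of the 13 varied, 3 lowest and 5 highest in replicate 1, a share near the 64.7% of genes averaging 100 or more counts. Nek2, a centrosomal kinase, held 157, 78, and 58 counts, and Birc5, the survivin gene of the chromosomal passenger complex, held 4811, 3730, and 3886, with replicate 1 highest for both. The median log2 ratio of replicate 1 was 0.03, and -0.06 with the trends removed, against -0.51 and -0.36 for Foxm1.

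Promoters of FOXM1 targets often carry the CHR, the element TTTGAA that MuvB contacts. It was searched on both strands of the RefSeq windows and was found for 6 of 11 targets with a window, or 54.5% of the windows, against 17.9% of all windows. The sites are shown because MuvB, which holds FOXM1 at such promoters, is known to contact these letters. Each line gives 30 bases on the strand of the gene in GRCm38.p6, taken from RefSeq, with the element in capitals.
Aurka (chr2:172370521-172370550, minus strand): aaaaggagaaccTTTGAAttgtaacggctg
Ccnb2 (chr9:70421533-70421562, minus strand): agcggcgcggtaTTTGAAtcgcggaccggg
Ccnb2 (chr9:70421704-70421733, minus strand): cagggactagaaTTTGAAaataagactgta
Cdc20 (chr4:118437344-118437373, minus strand): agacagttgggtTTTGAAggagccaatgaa
Cenpa (chr5:30666890-30666919, plus strand): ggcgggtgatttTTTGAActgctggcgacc
Cenpf (chr1:189688067-189688096, minus strand): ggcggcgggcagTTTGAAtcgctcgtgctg
Plk1 (chr7:122159453-122159482, plus strand): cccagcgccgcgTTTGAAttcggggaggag
Ccnb2 held 2 such elements, and every element lay on the strand of its gene. A match is a description of the letters, and binding was not measured. Among the partners, the windows of Lin37 and Lin54 held the element.

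**Figure D2:**
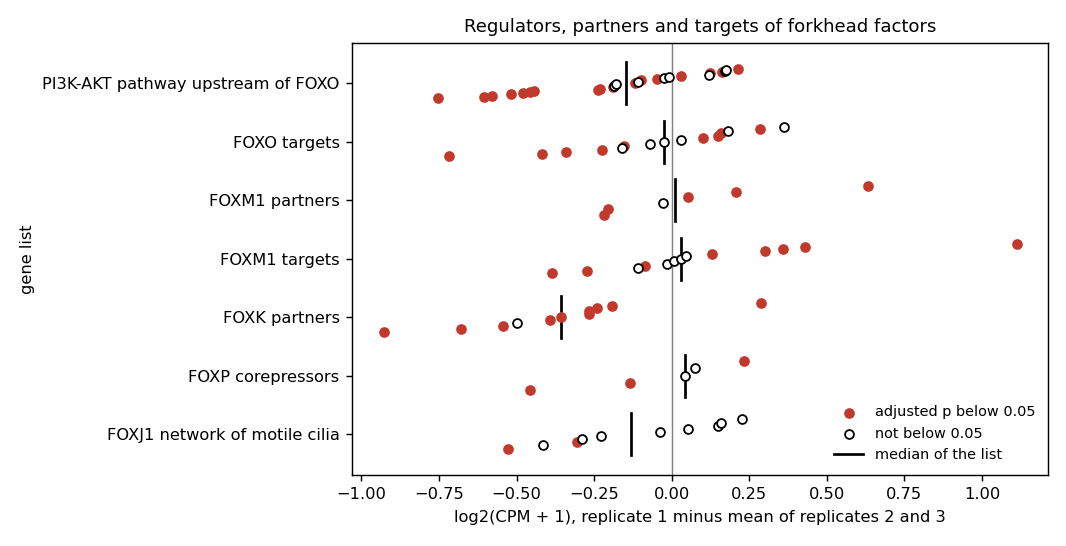
Each point is a gene of a list, placed by its log2(CPM + 1) in replicate 1 minus the mean of replicates 2 and 3; filled points passed the chi-square test between libraries, and black bars are list medians. The medians as measured lie at -0.36 for FOXK partners and 0.03 for FOXM1 targets. With the trends on length and GC content removed, which is not drawn, they were -0.14 and -0.06.

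The Foxp genes encode repressors of lung, heart, brain, and lymphoid development. Foxp4 was at 5.39, 6.61, and 6.08 FPKM in replicates 1, 2, and 3 and Foxp1 at 1.51, 1.66, and 1.63 FPKM, so Foxp4 exceeded Foxp1 by 3.76 ± 0.209 times (SD, n = 3). With the length of the longest coding transcript, the means were 7.42 FPKM for Foxp4 and 3.06 for Foxp1, so the ratio depends on the length. Neither gene passed the chi-square test with Benjamini-Hochberg adjustment (adjusted p = 0.0932 for Foxp4 and 0.870 for Foxp1). Foxp4 was lowest in replicate 1, and it passed when replicate 3 was left out (adjusted p = 0.0324) and when the library totals replaced the TMM sizes (adjusted p = 0.00909). Foxp2 and Foxp3 did not exceed 3 counts in any library. The 5 corepressor genes of FOXP proteins were all above 1 FPKM, with Hdac2 at 71.5 ± 6.16, Mta1 at 59.9 ± 4.87, and Hdac1 at 51.6 ± 0.612 FPKM (SD, n = 3). Gatad2b, a subunit of the NuRD complex, was at 3.92, 5.997, and 5.38 FPKM with replicate 1 lowest. Of the 5, 3 varied, beside 64.7% of genes averaging 100 or more counts.

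Foxn2 and Foxn3, broadly expressed members of the Foxn subfamily, were at 3.70 ± 0.216 and 3.07 ± 0.402 FPKM (SD, n = 3). Foxn2 was at 3.46, 3.88, and 3.76 FPKM and did not pass the chi-square test with Benjamini-Hochberg adjustment (adjusted p = 0.720). Foxn3, a checkpoint repressor, was at 2.63, 3.43, and 3.15 FPKM, was lowest in replicate 1, and passed it (adjusted p = 0.00308). Its log2 ratio of replicate 1 was -0.24, and 0.06 with the trends removed. Foxn4, a regulator of retinal progenitors, was at 0.738, 0.665, and 0.872 FPKM, below 1 FPKM but above 3 counts in every library, while Foxn1, the thymus factor, had 1 count in replicate 3 and 0 in the others.

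All 3 Foxj genes were at 1 FPKM or more. Foxj3 was at 2.47, 3.96, and 3.64 FPKM in replicates 1, 2, and 3, and Foxj2 was at 1.84, 2.62, and 2.52 FPKM. Both are broadly transcribed members of the subfamily, both were lowest in replicate 1, and both varied in the chi-square test with Benjamini-Hochberg adjustment (adjusted p = 3.20e-12 and 0.0113). Foxj1, the master regulator of motile cilia, was at 2.09, 2.63, and 1.75 FPKM. Replicate 2 was highest and replicate 3 lowest, and its adjusted p of 0.0452 in the same chi-square test rose to 0.0619, 0.249, and 0.292 when replicates 1, 2, and 3 were left out in turn. Of 12 genes of its cilia network only Rsph1, Dnaic1, and Rfx3 were at 1 FPKM or more, with 8.53 ± 0.448, 1.73 ± 0.121, and 1.45 ± 0.246 FPKM (SD, n = 3). Rsph1 and Dnaic1 encode a radial spoke and a dynein arm protein, and Rfx3 a transcription factor of cilia. Mcidas, which acts upstream of Foxj1, and Ccdc113 did not exceed 3 counts in any library. Of the 10 network genes tested, Rfx2 and Rfx3 passed the chi-square test, beside 47.2% of all genes tested, and both were lowest in replicate 1. In bulk RNA a few cells with much of a transcript and many cells with little of it cannot be told apart.

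Foxi3, a regulator of ectodermal placodes and of the pharyngeal region, was the highest of the lineage regulators. It was at 5.70, 11.3, and 11.6 FPKM in replicates 1, 2, and 3 (9.55 ± 3.34, SD, n = 3), from 132, 271, and 269 counts. Replicates 2 and 3 were close, and replicate 1 was 47.9% below their mean on TMM library sizes. The chi-square test with Benjamini-Hochberg adjustment gave an adjusted p of 4.15e-10 over all libraries and 0.826 without replicate 1. The log2 ratio of replicate 1 was -0.86, and the removal of the trends moved it to -1.14. Its transcript is short, at 1278 bases, and its paralogs Foxi1 and Foxi2 had 0 counts in every library. Foxr2, an X-linked gene known as an oncogene of neural tumors, was at 1.41, 1.73, and 1.59 FPKM, whereas Foxr1 had 0 counts. Foxr2 did not pass the chi-square test with Benjamini-Hochberg adjustment (adjusted p = 0.691).

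Between the limit of detection and 1 FPKM lay Foxn4 and 4 lineage genes. The endoderm genes Foxa3 and Foxa1, whose proteins open closed chromatin in liver and gut, held 14, 12, and 12 counts and 4, 4, and 7 counts in replicates 1, 2, and 3. The summed level of the 7 endoderm markers was 0.456 to 0.587 FPKM over the libraries, with Ttr at 0. Foxe1, a thyroid factor, held 9, 13, and 18 counts. Foxq1, known from hair and gut epithelium, held 24, 14, and 9 counts and was the only member that passed the chi-square test with replicate 1 highest (adjusted p = 0.0318 after Benjamini-Hochberg adjustment). Without replicate 1 its adjusted p was 0.664 and without replicate 3 it was 0.108. The counts of Foxq1 are uncertain, since 34.3% of the 50-base words of its transcript were found in no other gene and A530084C06Rik lies on the opposite strand. Of all members, 36 had more than 95% such words.

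The 20 members at or under 3 counts in every library were mostly lineage regulators. Among them were Foxc1, Foxc2, Foxf1, Foxf2, Foxd1, Foxd2, Foxl1, and Foxs1 of mesoderm and mesenchyme, Foxb1 and Foxb2 of the nervous system, Foxe3 of the lens, Foxl2 of the ovary, Foxi1 of the inner ear and kidney, Foxn1 of the thymus, Foxp2 of the brain, and Foxp3 of regulatory T cells. Foxd4, Foxi2, and Foxr1 were also in this group. Of the 20, 11 had at least 1 count, and the largest were Foxp3 with 0, 3, and 3 counts and Foxc1 with 1, 3, and 2 counts in replicates 1, 2, and 3. The limit set by 3 counts was 0.0679 FPKM for Foxf1 and 0.189 FPKM for the short gene Foxe3, the highest limit of the 20, so a lower level was not detectable at this depth. Several of these genes are neighbours. Foxf1, Foxc2, and Foxl1 lie on chromosome 8 with gaps of 28.0 and 9.05 kb, and all 3 were at or under 3 counts. All 3 also overlap the gene Gm20388 on the same strand. Other genes of this group overlap a further gene on the same or the opposite strand, among them Foxb1, Foxb2, Foxf2, Foxl2, Foxp2, and Foxp3. Whether reads of any of these were lost in the counting was not tested. Foxd2 and Foxe3 lie 16.3 kb apart on chromosome 4 and were likewise at or under 3 counts. On chromosome 13, Foxq1 is followed by Foxf2 after 64.8 kb and by Foxc1 after a further 175 kb, and only Foxq1 was above 3 counts. Foxj3 and Foxo6, both above 1 FPKM, lie on chromosome 4 with a gap of 638 kb.

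The lower level in replicate 1 ran through much of the family. The chi-square test required 10 or more counts summed over the libraries, a filter that the 21 members above 3 counts passed. Of these, 12 varied between libraries at an adjusted p below 0.05, or 57.1%, beside 47.2% of the 16944 genes tested and 64.7% of the 10577 genes averaging 100 or more counts. Of the 12, 10 were lowest in replicate 1, while Foxq1 was highest there and Foxj1 was highest in replicate 2. Among the 8003 genes that varied, 3748 were lowest in replicate 1. A call with the lowest level in replicate 1 was made for 22.1% of all genes tested, beside 10 of the 21 members. With or without a call, 40.9% of genes were lowest in replicate 1, beside 15 of the 21 members. Without replicate 1, 0 of the 21 members passed the test at an adjusted p below 0.05, beside 8.11% of all genes. At an unadjusted p below 0.05 this chi-square test without replicate 1 gave 3 members, Foxm1, Foxo3, and Foxj1, beside 21.2% of genes. Without replicate 2, 11 members passed, beside 42.9% of genes, and without replicate 3, 11 passed, beside 46.7%.

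**Figure D3:**
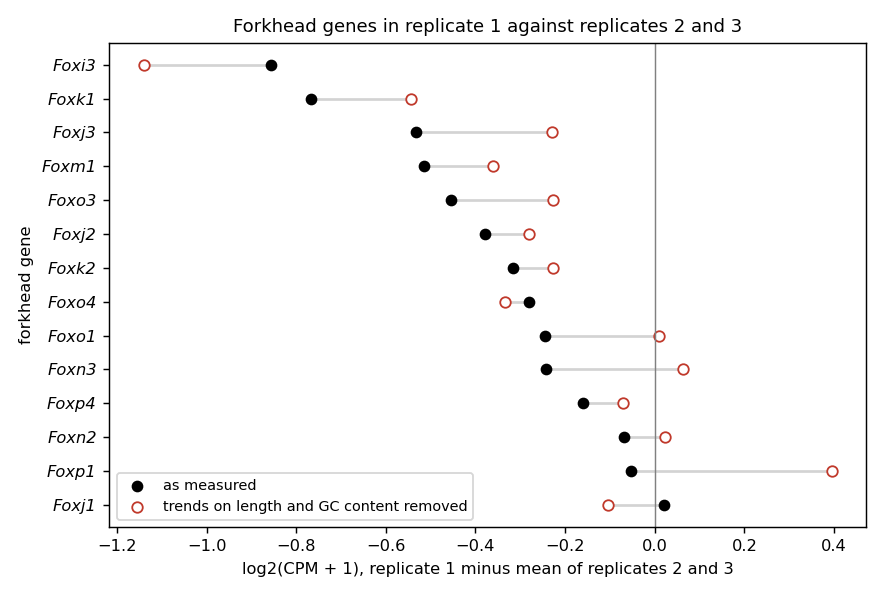
For the 14 forkhead genes averaging 100 or more counts, log2(CPM + 1) in replicate 1 minus the mean of replicates 2 and 3, as measured (black) and after removal of the length and GC content trends (open). As measured 13 lie below 0, and 10 do so with the trends removed.

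Since replicate 1 held fewer counts on long genes, the same difference was computed after those trends with length and GC content were taken out. The 14 members averaging 100 or more counts had a median log2 ratio of -0.30, and 13 were below 0, beside 49.2% of all genes at that depth. With the trends removed the median was -0.23 and 10 were below 0, beside 49.9%. Foxo1, Foxn3, Foxn2, and Foxp1 were above 0 after that step, and Foxj1 turned from 0.02 to -0.11. Foxp1, whose gene length of 13751 bases in the table is the longest of these members, moved the most, from -0.05 to 0.40. Foxi3, Foxk1, and Foxm1 were the lowest after that step.

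The members differed in gene structure along with their level. Among the 16 members at 1 FPKM or more, the longest coding transcript in GENCODE M21 had a median of 6 exons (2 to 19), and 0 were single-exon genes. Among the 20 members at or under 3 counts the median was 1 exon, and 11 were single-exon genes, although Foxp2 with 19 exons and Foxp3 with 14 were also in this group. The genes at 1 FPKM or more spanned a median of 49.9 kb and those at or under 3 counts 3.53 kb. The median GC content of the transcripts was 55.5% over the family, beside 49.1% over all coding transcripts. These are descriptions across genes, and paralogs share their structure by descent, so the members are not independent points.

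**Figure D4:**
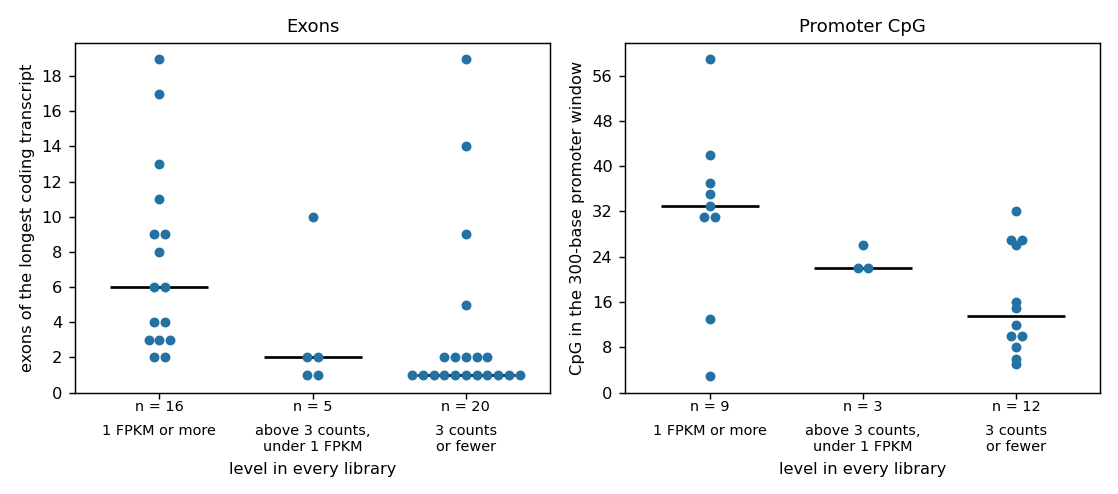
Left, exons of the longest coding transcript, and right, CpG dinucleotides in the promoter window, for members grouped by level. Points are genes and bars are medians; median exons are 6, 2, and 1, and median CpG are 33, 22, and 13.5 from the highest to the lowest level group.

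RefSeq windows within 5 kb of the gene start were at hand for 24 members. CpG dinucleotides were counted because CpG-rich promoters are a known feature of both broadly active and developmental genes. The median was 33 CpG (3 to 59) for 9 members at 1 FPKM or more, 22 for 3 members under 1 FPKM but above 3 counts, and 13.5 (5 to 32) for 12 members at or under 3 counts, beside 7 over all 32817 windows. At least 15 CpG were found in 16 of the 24 windows, beside 34.6% of all. The ranges overlapped, since Foxc1, Foxf2, Foxl2, and Foxd2 had 26 or more CpG with at most 3 counts. Foxr2, at 1 FPKM or more, had a window with 3 CpG, and where its transcripts start was not measured. The forkhead motif was in 1 of the 24 windows, that of Foxa1, beside 3.65% of all windows. The CHR was in 0 of the 24, beside 17.9% of all windows. The windows of the highest member, of the most CpG-rich member not detected, and of a member at 0 are shown as examples. They do not cover the whole range, since the window of Foxr2 is not shown. Foxl2, also at 0 counts, had 27 CpG. Each window shown is 300 bases in GRCm38.p6 from RefSeq, on the strand of the gene, with every CpG in capitals. They were chosen after their values were seen.
Foxk2 (chr11:121259737-121260036, plus strand, 59 CpG, 33.2 FPKM): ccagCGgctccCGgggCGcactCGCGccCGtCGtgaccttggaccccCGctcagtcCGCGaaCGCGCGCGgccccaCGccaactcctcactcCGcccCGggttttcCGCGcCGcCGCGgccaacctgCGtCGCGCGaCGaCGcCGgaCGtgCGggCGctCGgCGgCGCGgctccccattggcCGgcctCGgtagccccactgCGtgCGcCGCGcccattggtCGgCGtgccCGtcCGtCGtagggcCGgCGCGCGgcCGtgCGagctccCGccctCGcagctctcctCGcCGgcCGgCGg
Foxc1 (chr13:31806396-31806695, plus strand, 32 CpG, at or under 3 counts): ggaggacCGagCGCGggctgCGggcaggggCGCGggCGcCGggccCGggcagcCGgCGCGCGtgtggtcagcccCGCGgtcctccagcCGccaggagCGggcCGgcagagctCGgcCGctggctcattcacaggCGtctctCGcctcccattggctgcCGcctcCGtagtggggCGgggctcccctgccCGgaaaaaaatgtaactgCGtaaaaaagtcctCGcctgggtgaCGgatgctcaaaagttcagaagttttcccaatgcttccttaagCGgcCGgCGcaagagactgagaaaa
Foxi1 (chr11:34208040-34208339, minus strand, 6 CpG, 0 counts): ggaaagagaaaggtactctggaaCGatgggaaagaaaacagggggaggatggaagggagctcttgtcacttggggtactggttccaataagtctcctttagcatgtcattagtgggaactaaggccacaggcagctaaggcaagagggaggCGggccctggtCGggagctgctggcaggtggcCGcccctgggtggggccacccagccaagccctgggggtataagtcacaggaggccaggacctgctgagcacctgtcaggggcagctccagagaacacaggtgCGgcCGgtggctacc
The Foxc1 window was CpG-rich although its gene was not detected.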

How the data were processed

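Poly(A) RNA of 3 ALSC libraries was prepared with the Illumina TruSeq RNA kit, which does not mark strand, and sequenced as paired-end reads that the authors mapped to GRCm38. The submitters' processing notes name HISAT2 2.0.5, and the counting program and its handling of strand and of reads with several positions are not given in the sources used here. The labels name Trizol and the methods of the study an RNeasy kit for the extraction. The authors deposited raw counts per gene in 1 table with gene lengths and positions, without normalization. Of its 55738 rows, 317 carry no gene name and held 0.165% to 0.182% of the counts per library. Neither library sizes nor tests included them. The table's 3 other columns of values match no sample used here and were not used in any step. A further 3 genes that fit the name pattern, and the values of 1 member that is only counted, are not reported here.

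FPKM was computed from the counts, the gene length of the table, and the total on named genes. Each gene with 10 or more counts summed over the libraries was tested for equal proportions given the TMM sizes of edgeR (chi-square test of homogeneity). P-values were adjusted after Benjamini and Hochberg (Benjamini-Hochberg) over every gene tested, with a threshold of 0.05. This test covers counting error only. PCR copies of a molecule could not be told apart, as the reads carry no molecular identifiers. The log2 ratio of replicate 1 was taken on log2(CPM + 1), with a pseudocount of 1 CPM, which understates the ratios of low genes. Trends were removed as medians in 20 groups by length and then by GC content, set on genes averaging 100 or more counts. GC content and exons came from GENCODE M21, and all 14 members at that depth had a GC value. Promoter windows came from RefSeq (GRCm38.p6), of which 26 members had an entry and 24 lay within 5 kb of the start in the table. That limit was set after the windows were seen. The test was checked on simulated data that held counting error only. That check cannot show how the test behaves on libraries that vary beyond counting error, as these do.

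The members, gene lists, and tests were chosen with earlier results of these data known. Members above 3 counts in at least 1 library were named with their values, and the others as a group. For each pathway list the 3 genes with the highest mean FPKM, the 2 that varied most by chi-square divided by count, and the genes at or under 3 counts in every library were named. Genes outside the family whose symbol begins with Fox were counted, and those above 3 counts in every library were named. Foxl2os and Foxo6os, at 0, were named after their values were seen. Alternatives were TMM or DESeq2 scaling, TPM, another gene length, other thresholds and filters, another pseudocount, and leaving out each library. Tools were DESeq2 1.42.0 and edgeR 4.0.16 in R 4.3.3, and SciPy 1.17.1, matplotlib 3.10.9, pandas 2.3.3, and NumPy 2.4.6 in Python 3.11.15.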

Additional observations from a re-analysis of the deposited data

Results flagged for a closer look

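Of the genes whose symbol begins with Fox but that are not forkhead factors, Foxd2os drew attention as a signal outside the family. This long noncoding RNA gene lies beside Foxd2 on chromosome 4 and held 5, 5, and 8 counts in replicates 1, 2, and 3, a mean of 6, above the 3 counts that a count of 0 allows, while Foxd2 held 0, 1, and 0. The 2 genes do not overlap in the deposited table. Foxl2os and Foxo6os had 0 counts in every library. Foxred1 and Foxred2, which encode oxidoreductases and share only their symbol with the family, were at 11.4 ± 0.622 and 3.43 ± 0.741 FPKM (SD, n = 3).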

How the results depend on the processing

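No paired analysis was possible because all libraries belong to 1 condition and no groups were compared. The number of members at 1 FPKM or more was 16 under TMM and DESeq2 scaling, with transcript length, and without each library, and it was 17 in TPM, 17 at 0.5 FPKM, and 11 at 2 FPKM. The number above 3 counts in every library was 21 without each library, and 18 members were above 10 counts. The family total ranged from 127.7 to 147.8 FPKM when each library was left out, and it was 375.8 in TPM, a unit scaled to a fixed sum over genes. The share of the 3 highest members was 57.39% with the length of the longest coding transcript. The number of members that varied between libraries was 11 to 13 under the other scalings and filters, and 0 to 11 when each library was left out. It was 0 without replicate 1. After removal of the length and GC trends, replicate 1 changed sign against replicates 2 and 3 on the log2 scale for Foxo1 (0.00937), Foxn3 (0.0625), and Foxj1 (-0.105) among the members that varied. Among the other members tested it changed sign for Foxn2 (0.02) and Foxp1 (0.40). It also did so for Foxo6 (-0.05), Foxn4 (-0.03), and Foxa3 (-0.10), which averaged under 100 counts. The trends were set on genes averaging 100 or more counts, and the pseudocount understates the ratios of low genes. Hence no change of sign was read for Foxo6, Foxn4, or Foxa3. Of the p-values of single members under the alternatives, 127 kept their side of the threshold, 16 rose above it, of which 12 did so without replicate 1, and 2 fell below it, both for Foxp4. Single-gene levels moved by more than 1 SD for 6 members with transcript length. In TPM all 21 members did so, because the scale of that unit differs from that of FPKM. The depth of the libraries limits statements on the 20 members at or under 3 counts.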
